A study of Mus musculus with 4 samples.

Results

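Immediate-early genes are switched on within minutes of a stimulus, without new protein synthesis, and their RNAs decay quickly. Most encode transcription factors. The genes Fos, Fosb, Jun, Junb, Egr1, Atf3, Nr4a1, Nr4a2, Ier2 and Gadd45b, 10 in all, are described here across adrenal glands of mice without and with the V1a receptor for vasopressin. All probe sets annotated to exactly 1 of these 10 genes were taken, which gave 18 of the 45037 probe sets of the array, and 10 of the 18193 genes named on it. The array annotation names none of the 10 in a probe set shared with another gene, and all 10 gene IDs keep their symbol in RefSeq's GRCm38.p6 gene table.

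The samples were adrenal glands of male mice aged 2 months: 2 arrays from V1a knockout (V1a_KO) mice and 2 from wild_type mice, 1 array per sample. The labels give neither the strain nor the part of the receptor gene that was removed, and they do not say whether a sample was 1 animal or a pool. A p-value therefore measures the spread among these 4 samples alone, and part of that spread may be technical. The mRNA, with an integrity number of 8.0 to 9.0, was hybridised to Affymetrix Mouse Genome 430 2.0 arrays, and the deposited values are log2 expression units per probe set. Values are given in log2 units throughout, and 1 unit is a 2-fold step.

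Several of the factors work as pairs. FOS-family and JUN-family proteins form the AP-1 dimer through leucine zippers, ATF3 is a related zipper protein that can also pair with JUN proteins, EGR1 is a zinc-finger factor, and NR4A1 and NR4A2 are orphan nuclear receptors. In the adrenal cortex NR4A1 is known as a factor that ACTH and angiotensin II induce and that acts on genes of steroid synthesis. IER2 is a short-lived nuclear protein, and GADD45B, a stress-induced protein that binds and activates the kinase MEKK4, is not itself a DNA-binding factor.

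Cyclic AMP and calcium, the messengers of ACTH and of Gq-coupled receptors, reach many of these genes through CREB bound at cyclic AMP response elements in their promoters. RefSeq promoter windows were matched by gene for 8 of the 10, and 4 are shown because their genes differ in how they ordered the arrays (the 250 bases before the annotated start, build GRCm38.p6, 5′ to 3′). Capitals mark the core of the cyclic AMP response element, TGACG, on either strand, where the other strand reads CGTCA.
Fos, chr12:85473640-85473889, + strand: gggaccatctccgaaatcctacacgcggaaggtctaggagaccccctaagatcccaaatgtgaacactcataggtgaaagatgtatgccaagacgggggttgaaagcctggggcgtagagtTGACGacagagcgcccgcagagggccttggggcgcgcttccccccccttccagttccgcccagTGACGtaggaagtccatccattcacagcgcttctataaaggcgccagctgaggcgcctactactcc
Junb, chr8:84978749-84978998, - strand: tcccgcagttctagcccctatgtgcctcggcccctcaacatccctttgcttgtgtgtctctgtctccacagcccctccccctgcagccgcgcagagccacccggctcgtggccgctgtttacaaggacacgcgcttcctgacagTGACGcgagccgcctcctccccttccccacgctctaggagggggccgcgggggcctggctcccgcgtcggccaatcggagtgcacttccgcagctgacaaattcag
Nr4a1, chr15:101266596-101266845, + strand: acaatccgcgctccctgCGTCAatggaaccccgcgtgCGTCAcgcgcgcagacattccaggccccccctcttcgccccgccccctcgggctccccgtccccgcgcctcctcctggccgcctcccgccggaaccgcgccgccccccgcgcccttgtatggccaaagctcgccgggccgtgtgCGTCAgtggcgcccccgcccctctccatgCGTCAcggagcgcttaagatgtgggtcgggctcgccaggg
Nr4a2, chr2:57124004-57124253, - strand: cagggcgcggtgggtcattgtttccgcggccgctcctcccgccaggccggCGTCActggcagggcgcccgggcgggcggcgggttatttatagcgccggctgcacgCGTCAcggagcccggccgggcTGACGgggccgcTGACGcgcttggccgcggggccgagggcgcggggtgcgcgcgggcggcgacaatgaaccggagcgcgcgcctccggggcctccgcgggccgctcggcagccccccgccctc

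The core TGACG, a motif chosen after the sequences had been read, was found in the windows of 6 of the 8 genes, Fos, Fosb, Junb, Atf3, Nr4a1 and Nr4a2, and in 17.8% of all 32851 windows of the same length. Nr4a1 and Nr4a2 held 4 copies each, Fos held 2, and Fosb, Junb and Atf3 held 1. In Fos the nearer copy lay 66 to 62 bases before the start and a TATA motif, TATAAA, 33 to 28 bases before it. The full palindrome TGACGTCA, which contains the core, the AP-1 motif TGANTCA, the NR4A motif AAAGGTCA and the CArG box of serum response factor were in none of the 8 windows, and in 1.55%, 6.75%, 1.34% and 1.47% of all windows. TATAAA was in 3 of the 8, against 12.4% of all windows, and CCAAT in 3 of the 8, against 33.8%, counting both strands. These are matches of letters within 250 bases and say nothing about binding.

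The 4 arrays were not equally alike. Over the 17228 probe sets that reached 4 units on at least 2 arrays, Pearson's r was 0.986 within the knockout but 0.924 within wild type. Wild-type array 1 reached only 0.919 to 0.924 against any other array, so it stood apart from all 3. Avpr1a, the targeted gene, read 2.31 to 2.60 on every array, near the lowest value of 2.30, and does not check the genotype labels. Cortex markers were high on all arrays (Cyp11a1 13.94 to 13.99 in the knockout and 13.91 to 14.01 in wild type), as were those of the medulla (Chgb 14.09 to 14.41 and 14.09 to 14.37), so the tissue label held.

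No genotype difference in the immediate-early genes passed the test, and in most of them the 2 wild-type adrenal samples lay further apart than the genotype means, as they did in most genes of the array. Fosb did not pass the filter and was above 4 units on wild-type array 1 alone, so the counts that follow are over the other 9 genes, each on its probe set with the highest mean. The wild-type arrays lay further apart than the genotype means in 8 of these 9 genes, all but Junb (background 71.2% of the 10110 tested genes). With arrays centred on their medians or with plain probe sets only it was 7 of the 9, and the background of these settings is not given. The wild-type arrays were further apart than the knockout arrays in 8 of the 9 (background 77.4%). Wild-type array 1 was the highest of the 4 arrays in 7 of the 9 (background 49.5%), and wild-type array 2 the lowest in 6 (background 32.0%). The knockout mean was lower in 7 of the 9 (background 56.0%), with a median difference of -0.83. None of the 14 probe sets that could be tested passed limma's test over all probe sets at an adjusted p of 0.05 (background 0.0%, 0 of 17228), nor at an unadjusted p under 0.05 (background 5.14%). The 4 untested probe sets were that of Fosb, 2 of Nr4a2 and 1 of Gadd45b. The leading probe sets of the 9 genes were at or above 4 units on all 4 arrays, so none passed through 1 genotype alone.

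**Figure D1:**
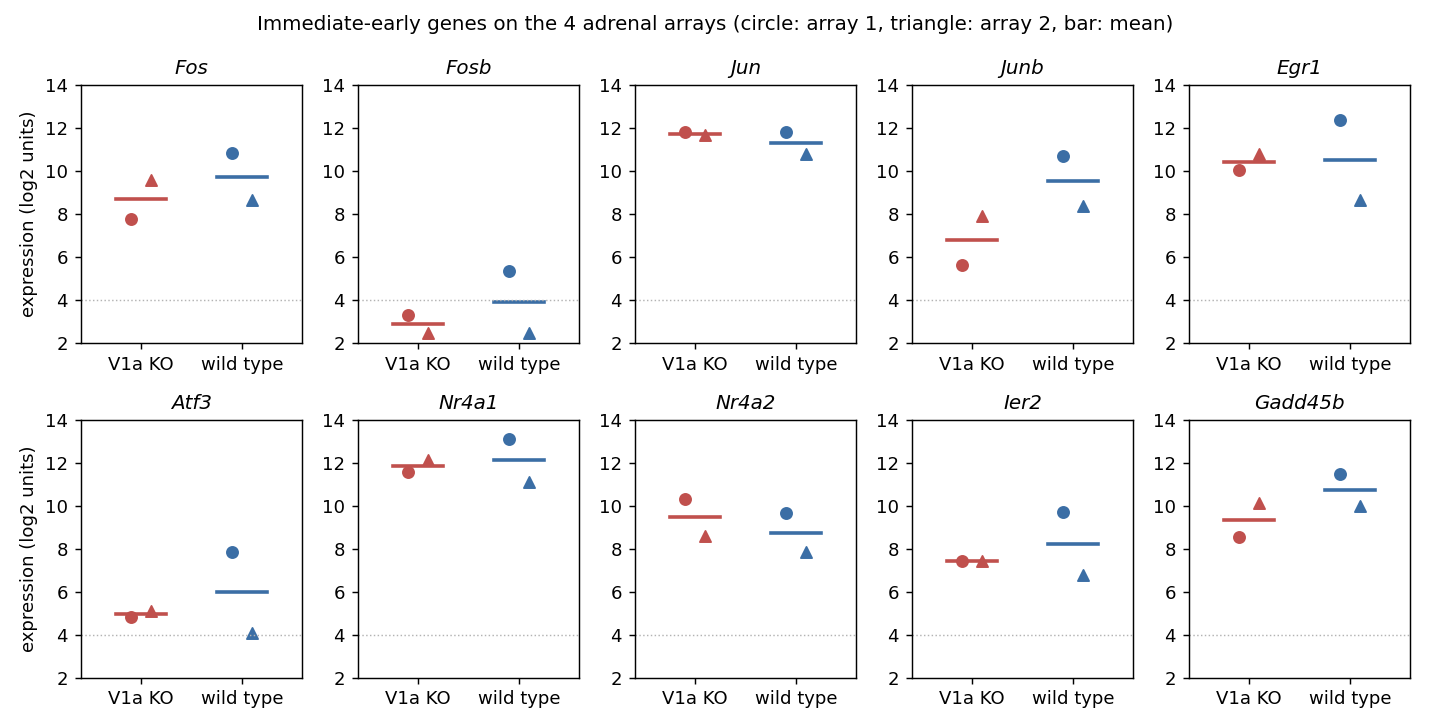
Expression in log2 units (y axis) of the 10 immediate-early genes on each array, V1a knockout on the left and wild type on the right of each panel. Circles are array 1, triangles array 2, bars the mean of the 2 arrays, and the dotted line marks the filter of 4 units. Wild-type circles lie above wild-type triangles in every panel, from 1.00 units in Jun to 3.74 in Atf3.

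Fos, the partner subunit of AP-1 that needs JUN to bind DNA, read 7.78 and 9.58 on the knockout arrays and 10.83 and 8.63 on the wild-type arrays. The groups overlapped: wild-type array 1 was highest, and knockout array 1 lowest, with the other two in between. The means were 8.68 ± 1.27 in the knockout and 9.73 ± 1.56 in wild type (SD, n = 2 each), so they differed by -1.05 (SE 1.05, limma adjusted p = 0.804). Its close relative Fosb read 3.28 and 2.47 in the knockout and 5.36 and 2.45 in wild type. Only wild-type array 1 lifted Fosb above the filter, so no test was made.

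Junb, a JUN-family partner of FOS, was the 1 gene whose groups did not overlap. It read 5.62 and 7.91 in the knockout and 10.69 and 8.36 in wild type, so both knockout arrays were lower. Among all 10110 tested genes, 20.5% had both knockout arrays lower and 17.1% both higher. The Junb means were 6.77 ± 1.62 in the knockout and 9.53 ± 1.65 in wild type (SD, n = 2 each), with a difference of -2.76 (SE 1.21, 95% interval -6.20 to 0.68, limma unadjusted p = 0.0884, adjusted p = 0.794). The knockout arrays lay 2.29 units apart and the wild-type arrays 2.33, each a little less than the genotype means. Of the 10 genes Junb thus had the largest genotype difference and also the widest gap between the knockout arrays.

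Jun, the founding member of its family, varied least. Its brighter probe set (1417409_at) read 11.81 and 11.66 in the knockout and 11.80 and 10.80 in wild type, and the second (1448694_at) read 10.47 and 10.39 in the knockout and 11.002 and 10.33 in wild type. The differences of the 2 probe sets had opposite signs, 0.44 (SE 0.40) and -0.24 (SE 0.29), with limma adjusted p of 0.796 and 0.827. On both, wild-type array 2 was the lowest array.

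Egr1, a zinc-finger factor of growth signalling, read 10.04 and 10.77 in the knockout and 12.38 and 8.65 in wild type. Both knockout arrays fell between the wild-type arrays, which were 13.2-fold apart. Both arrays of the knockout lay between those of wild type in 4 of the 9 tested genes, Egr1, Atf3, Nr4a1 and Ier2, and in 28.7% of all tested genes. The genotype means, 10.40 ± 0.52 in the knockout and 10.51 ± 2.63 in wild type (SD, n = 2 each), differed by -0.11 (SE 1.40, 95% interval -4.10 to 3.88, limma adjusted p = 0.994). The distance between the wild-type arrays was 33.8 times that between the genotype means.

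Atf3, a stress-induced zipper protein, read 4.84 and 5.09 in the knockout and 7.83 and 4.09 in wild type. Here too the knockout arrays sat between the wild-type arrays, and they were 0.26 units apart where the wild-type arrays were 3.74 apart, or 13.3-fold. On the leading probe sets, Egr1 and Atf3 were the 2 genes of the 10 with wild-type arrays at least 8-fold apart (background 0.692%). Other probe sets of Nr4a2 had them further apart, 40.1-fold on 1447863_s_at and 30.3-fold on 1450750_a_at. The difference of the means was -0.998 (SE 1.38, limma adjusted p = 0.848). Ier2 had the same order of wild type and knockout, with 7.41 and 7.41 in the knockout and 9.71 and 6.77 in wild type. It differed by -0.83 (SE 1.09, limma adjusted p = 0.841). Its knockout arrays agreed to within 0.0037 units while its wild-type arrays were 7.66-fold apart.

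Nr4a1, the orphan receptor tied to steroid synthesis, read 11.56 and 12.12 in the knockout and 13.10 and 11.11 in wild type. The knockout arrays again lay between the wild-type arrays. The means were 11.84 ± 0.40 in the knockout and 12.11 ± 1.41 in wild type (SD, n = 2 each), with a difference of -0.27 (SE 0.77, limma adjusted p = 0.932).

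Nr4a2, its relative, was read by 6 probe sets, 4 of them tested. The leading one (1455034_at) read 10.33 and 8.59 in the knockout and 9.67 and 7.82 in wild type, so that it differed by 0.71 (SE 0.94, limma adjusted p = 0.842). In both genotypes array 1 lay well above array 2. The other 3 tested probe sets put wild-type array 1 highest and differed by -0.79 (1447863_s_at, SE 2.07), -0.78 (1450749_a_at, SE 1.22) and -0.12 (1450750_a_at, SE 1.88). On 1447863_s_at the knockout arrays read 8.80 and 6.98 and the wild-type arrays 11.34 and 6.01, which is 40.1-fold apart. On 1450749_a_at the values were 6.85 and 5.38 in the knockout and 8.38 and 5.43 in wild type, and on 1450750_a_at 8.51 and 7.05 in the knockout and 10.35 and 5.44 in wild type. Knockout array 1 exceeded knockout array 2 on all 4 tested probe sets, by 1.46 to 1.82 units. Averaged over its tested probe sets, Nr4a2 differed by -0.24, so its direction depended on the probe set. The remaining 2 probe sets read 2.30 to 3.10.

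Gadd45b, the stress-response protein, read 8.53 and 10.13 in the knockout and 11.45 and 9.997 in wild type on its leading probe set (1449773_s_at). Knockout array 1 was lowest and wild-type array 1 highest, and the other 2 arrays lay 0.14 apart in the middle. The difference was -1.39 (SE 0.81, limma adjusted p = 0.794). The second probe set (1450971_at) read 8.40 and 9.81 in the knockout and 11.21 and 9.83 in wild type, so that it differed by -1.41 (SE 0.74, limma adjusted p = 0.794). On it the groups did not overlap, with knockout array 2 just under wild-type array 2, and the wild-type arrays, 1.39 units apart, lay slightly closer than the genotype means. The dimmest probe set (1420197_at) read 2.46 on 3 arrays and 3.67 on wild-type array 1.

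The spread between arrays of a genotype can be set against that of the array as a whole. Over the 9 tested genes the median distance between the wild-type arrays was 2.20 units, against 0.73 between the knockout arrays and 0.83 between the genotype means. Over all 10110 tested genes the same medians were 0.44, 0.14 and 0.24. The wild-type arrays were at least 2-fold apart in 9 of the 9 genes and in 14.6% of all tested genes, and the knockout arrays in 4 of the 9 (Fos, Junb, Nr4a2 and Gadd45b) and in 1.77% of all. Genotype means at least 2-fold apart were seen in 3 of the 9 (Fos, Junb and Gadd45b) and in 4.36% of all. The knockout arrays lay further apart than the genotype means in 5 of the 9 and in 36.4% of all. The genes were chosen with the gap between the wild-type arrays known, so its size among them is a description. With 2 arrays a genotype an exact two-sided permutation test of 2 against 2 cannot go below p = 0.333.

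**Figure D2:**
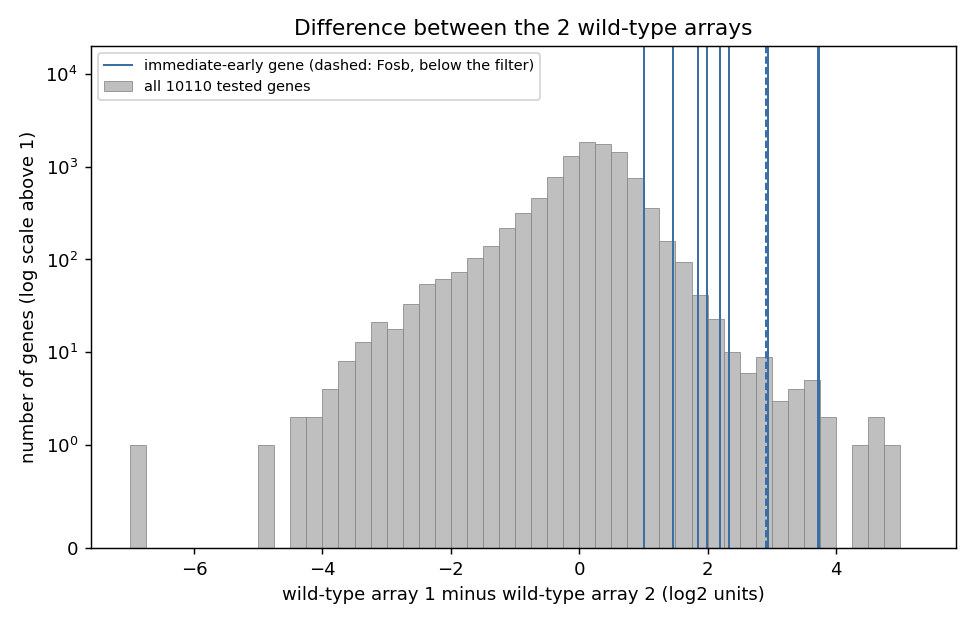
Number of genes (y axis, log scale above 1) by the difference between wild-type array 1 and wild-type array 2 in log2 units (x axis), in grey for all 10110 tested genes. Vertical lines mark the 10 immediate-early genes, dashed for Fosb, and all lie at 1.00 or to the right of it, where the median of all tested genes is 0.20.

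The residual SD of limma, which measures the spread within genotypes, was 1.90 for Egr1, 1.87 for Atf3, 1.63 for Junb, 1.47 for Ier2 and 1.42 for Fos, beside a median of 0.263 over all tested probe sets. These 5 stood above 98.6% to 99.6% of the tested probe sets. Jun stood above 81.5% on its brighter probe set and above 63.1% on the second. The gap between the wild-type arrays, known when the genes were chosen, is part of this SD. Nr4a2 reached 2.81 on 1447863_s_at.

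**Figure D3:**
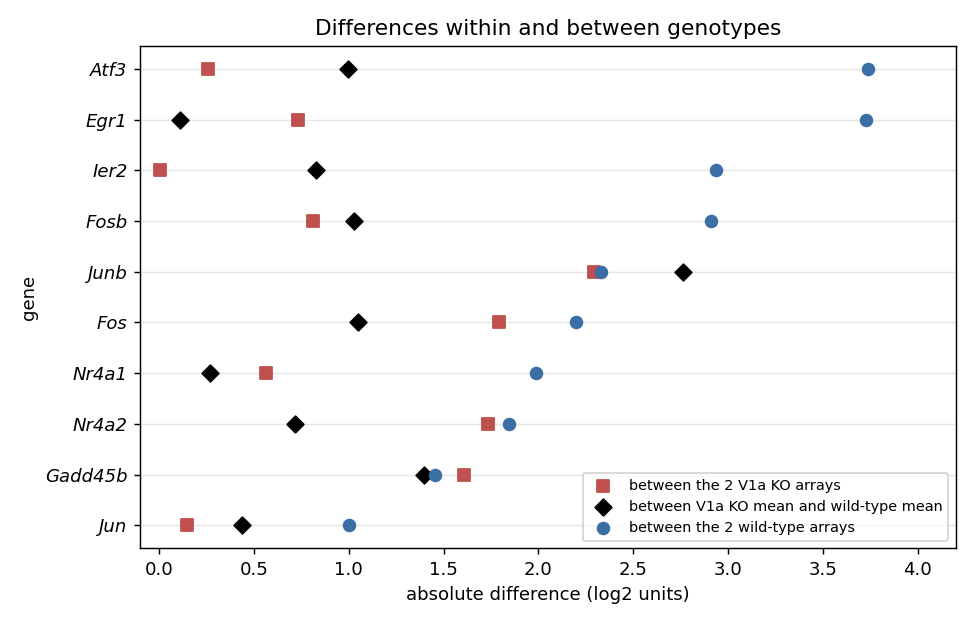
Absolute differences in log2 units (x axis) for each gene (y axis): squares between the 2 V1a knockout arrays, diamonds between the genotype means, circles between the 2 wild-type arrays. On these leading probe sets the circle lies right of the diamond in each gene but Junb.

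In 7 of the 9 tested genes, the direction depended on which wild-type array served as the comparison. Against wild-type array 1 the knockout mean was lower in all 9 tested genes, with a median difference of -2.12, though in Jun only by -0.06. Against wild-type array 2 the knockout mean was higher in 7 of the 9, with a median of 0.73, though in Fos only by 0.05. It was lower in Junb (-1.60) and Gadd45b (-0.67). The genes were chosen with the gap between these arrays known, so this is a description. Among all tested genes, the knockout mean was below wild-type array 1 in 61.6% and above wild-type array 2 in 56.7%. Only Junb and Gadd45b were lower in the knockout against each wild-type array. Egr1 differed by -1.97 against wild-type array 1 and by 1.75 against wild-type array 2, Atf3 by -2.87 and 0.87, Ier2 by -2.30 and 0.64, and Nr4a1 by -1.26 and 0.73.

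With wild-type array 2 left out, Atf3 and Ier2 passed an unadjusted threshold of 0.01 together with a difference of 1 unit or more. Atf3 had a limma unadjusted p = 0.00232 and Ier2 one of 0.000779, with a limma adjusted p = 0.0721 for each. They were 2 of the 14 member probe sets, where 8.69% of all probe sets passed in that fit. With all 4 arrays 0.836% of all probe sets passed this rule, and without wild-type array 1 1.06% did, and no member probe set in either fit. At an unadjusted p under 0.05, 4 of the 14 passed without wild-type array 1, beside 12.0% of all probe sets, and 4 without wild-type array 2, beside 37.8% of all. Both times these were Egr1, Atf3, Ier2 and 1 probe set of Jun, a different one each time, and Egr1, Atf3 and Ier2 had opposite signs in the 2 fits. A wild type of 1 array is assumed there to vary like the knockout. The genes were also chosen with the gap between the wild-type arrays known, and each of these fits keeps 1 side of it. These p-values and counts are therefore no support for a difference.

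**Figure D4:**
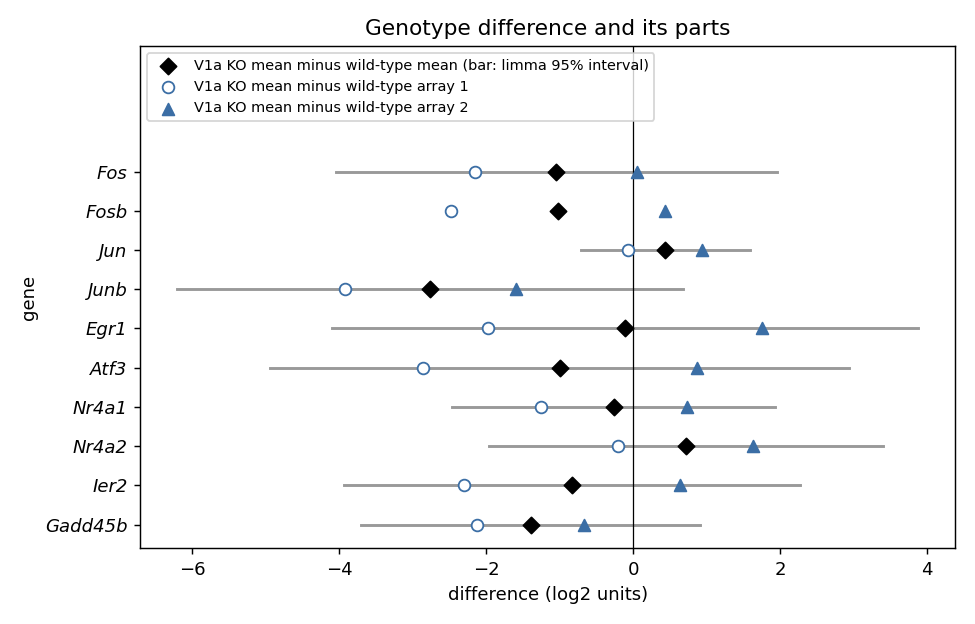
Difference in log2 units (x axis) for each gene (y axis), V1a knockout mean minus wild-type mean (diamond, bar for limma's 95% interval), minus wild-type array 1 (open circle) and minus wild-type array 2 (triangle). All open circles lie left of 0 and 8 of the 10 triangles right of it, and each of the 9 intervals includes 0.

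The 10 genes did not share 1 profile over the arrays. Knockout array 2 exceeded knockout array 1 in 6 of the 9 tested, by 2.29 in Junb, 1.79 in Fos, 1.61 in Gadd45b, 0.73 in Egr1, 0.56 in Nr4a1 and 0.26 in Atf3. In Nr4a2 the order was the reverse, with knockout array 1 higher by 1.73, and in Fosb by 0.81. Jun (0.15) and Ier2 (0.0037) were nearly level. Over all tested genes the share with knockout array 2 higher was 51.6%.

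Markers of other cells moved between the same arrays. The summed level of the 6 measured of 7 chromaffin cell markers was 15.60 and 15.01 in the knockout and 15.70 and 15.09 in wild type (log2 of the sum), so it was higher on both arrays numbered 1, as was Nr4a2 on its leading probe set. Dbh, which makes noradrenaline, read 12.02 and 10.96 in the knockout and 12.60 and 10.99 in wild type. This order of arrays, both numbered 1 above both numbered 2, was seen in 22.6% of all tested genes and in 3 of the 9 tested members (Jun, Nr4a2 and Ier2). The part of medulla content in the values of Nr4a2 was not tested, and in whole glands fewer cells of a type and less RNA per cell cannot be told apart.

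Brown fat markers had the array order of Junb. Ucp1, the heat-producing uncoupling protein of brown fat, read 2.80 and 5.91 in the knockout and 10.05 and 7.24 in wild type, and Cidea, a lipid droplet protein, 3.37 and 6.06 in the knockout and 9.78 and 6.78 in wild type. The order wild-type 1, wild-type 2, knockout 2, knockout 1 was found in 9.3% of all tested genes. The other 2 measured fat markers, Adipoq and Fabp4, were also lowest on knockout array 1, but highest on knockout array 2. The summed level of the 4 measured of 6 fat markers was 12.26 and 13.36 in the knockout and 13.27 and 12.78 in wild type. Its part in the values of Junb, Fos and Gadd45b, which were likewise lowest on knockout array 1, was not tested.

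Liver and blood markers moved with wild-type array 1. Alb read 2.43 and 2.43 in the knockout and 8.86 and 2.42 in wild type, and Ttr 2.76 and 2.88 in the knockout and 8.95 and 2.30 in wild type. The summed level of the 5 liver markers was 4.79 and 4.82 in the knockout and 10.39 and 7.39 in wild type, and on wild-type array 2 Serpina1b, at 7.20, was the 1 liver marker above 4. Alas2, which starts haem synthesis in red cell precursors, read 4.67 and 5.30 in the knockout and 9.46 and 4.87 in wild type. The globin gene Hba-a1 was at 2.30, the lowest value, on every array. Hbb-b1, the other globin gene of the list, had no probe set of 1 gene. Probe sets shared between genes were left out, so these values do not show whether globin RNA was present. The summed level of the 3 measured of 5 blood markers was 5.17 and 5.64 in the knockout and 9.51 and 5.31 in wild type. Kidney markers summed to 4.86 to 4.95 in the knockout and 4.90 to 4.92 in wild type, with all 5 below the filter. The part of liver or blood RNA in the immediate-early values of wild-type array 1 was not tested.

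The sums of the other marker lists were 16.20 to 16.25 in the knockout and 16.29 to 16.31 in wild type for 7 cortex markers, 10.74 to 11.09 and 10.61 to 11.08 for 5 of endothelium, 10.69 to 11.50 and 10.68 to 11.06 for 5 of macrophages, and 10.20 to 10.62 and 10.54 to 11.32 for 5 of fibroblasts and capsule. That of fibroblasts and capsule was highest on wild-type array 1 and that of macrophages on knockout array 2, and the part of either in the immediate-early values was not tested.

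**Figure D5:**
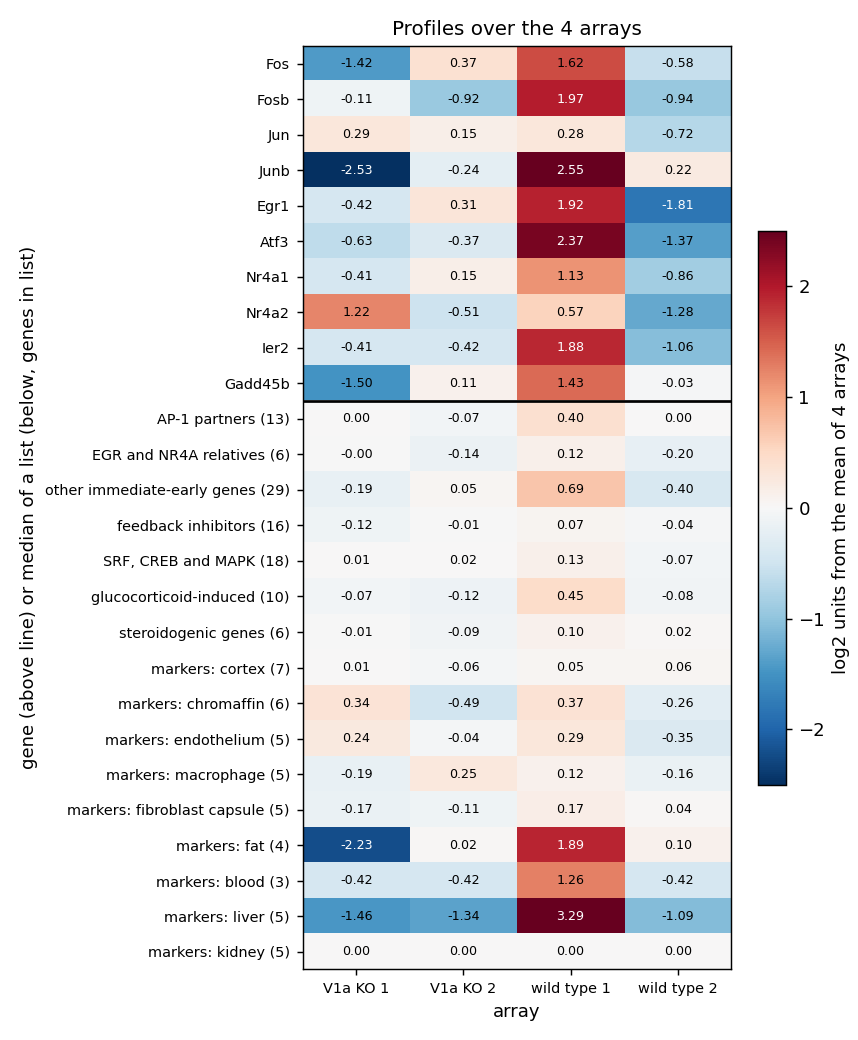
Difference of each array (columns) from the mean of the 4 arrays in log2 units (colour and number), for the 10 immediate-early genes above the line and, below it, the median over each list of related or marker genes, with the number of measured genes in brackets. Wild-type array 1 is the highest column for 8 of the 10 genes and for every list but the cortex, macrophage and kidney markers. It lies 3.29 units above the mean for liver markers and 0.37 for chromaffin markers. The median over the cortex markers stays within 0.06 units of the mean, while single ones move more, as Nr5a1 (9.89 on knockout array 1, 10.51 on wild-type array 1).

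Genes around this group were counted by list. Of 29 other immediate-early genes 27 were tested, and none passed limma's adjusted threshold or an unadjusted p under 0.05. The knockout mean was lower in 14 and higher in 13, with a median difference of -0.22, beside -0.05 over all tested genes, 56.0% of which were lower. Pim1, a serine kinase, read 7.26 and 8.17 in the knockout and 9.91 and 8.61 in wild type, and differed by -1.55 (SE 0.60, limma adjusted p = 0.794). Sgk1, a kinase induced by steroids, ran the other way, with 11.14 and 10.87 in the knockout and 9.70 and 10.54 in wild type, and differed by 0.89 (SE 0.36, limma adjusted p = 0.794). In both the groups did not overlap. Of the 27 genes, 3 had both knockout arrays lower and 3 had both higher, beside 20.5% and 17.1% of all tested genes.

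Wild-type array 1 was the highest array in 18 of these 27 genes, against 49.5% of all tested genes. The wild-type arrays were at least 2-fold apart in 14 of the 27, against 14.6% of all. Their median difference between wild-type array 1 and wild-type array 2 was 0.98 units, and that of all tested genes was 0.20. Nfil3, a zipper repressor, was furthest apart and was named after its value was seen. It read 5.61 and 5.68 in the knockout and 8.71 and 3.79 in wild type. Csrnp1, Btg2 and Per1, also named after their values were seen, had wild-type arrays 3.10, 2.998 and 2.86 units apart. Klf10, by contrast, read 7.56 and 8.12 in the knockout and 5.73 and 7.98 in wild type, with wild-type array 1 the lowest.

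Of the AP-1 partners, 10 of 13 were tested, 7 lower and 3 higher in the knockout, and none passed either threshold of 0.05. Over all tested genes the share lower was 56.0%. Maff, a small MAF protein, came nearest, with 3.53 and 3.72 in the knockout and 4.62 and 4.09 in wild type (difference -0.73, SE 0.26, limma unadjusted p = 0.0501). Both its knockout values lay under the filter of 4 units, so it was tested only through wild type, where it was higher. Its p is therefore no support for a difference. Mafk, another small MAF protein, differed by -0.48 (SE 0.24). The wild-type arrays were at least 2-fold apart in 1 of the 10, against 14.6% of all tested genes. Jund, the JUN protein with the steadiest expression as a rule, read 10.51 and 10.19 in the knockout and 10.62 and 10.62 in wild type.

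Among the 6 EGR and NR4A relatives only Nr4a3, Nab1 and Nab2 were bright enough to test. Nr4a3, the remaining NR4A receptor, read 9.94 and 8.99 in the knockout and 10.75 and 8.57 in wild type, with array 1 above array 2 in both genotypes, as in Nr4a2. The EGR co-repressors Nab2 and Nab1 differed by 0.43 (SE 0.39) and -0.15 (SE 0.16). Egr2 and Egr3 were highest on wild-type array 1, at 4.60 and 2.84. Egr2 was below 4 units on the other 3 arrays. Egr3 was below 4 units on every array, and Egr4 read 2.30 on every array.

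Feedback inhibitors, which shut off kinase signalling or degrade immediate-early RNA, had 13 of 16 genes tested. Of these, 8 were lower and 5 higher in the knockout, where 56.0% of all tested genes were lower, and none passed. Spry1 differed by -0.57 (SE 0.25). Spry4, of the same family of receptor kinase inhibitors, read 6.54 and 6.11 in the knockout and 2.58 and 5.59 in wild type, with wild-type array 1 lowest (difference 2.24, SE 1.12). Upstream, 18 of 23 genes of the SRF, CREB and MAP kinase list were measured. Of these, 9 were lower and 9 higher in the knockout, with a median of 0.01. The wild-type arrays were less than 2-fold apart in all 18, and at least 2-fold apart in 14.6% of all tested genes. Elk3, a partner of serum response factor, differed by 1.01 (SE 0.39), and Mkl1, a co-activator of it, by -0.45 (SE 0.19).

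Genes that glucocorticoids induce gave 8 lower and 1 higher in the knockout of 9 tested, with a median of -0.24 and none past the thresholds, where 56.0% of all tested genes were lower. Mt1, a metallothionein, differed by -0.69 (SE 0.26) and Zbtb16, a zinc-finger repressor, by -2.10 (SE 0.90). Wild-type array 1 was the highest in 8 of the 9, against 49.5% of all tested genes. Of the 6 measured steroidogenic genes of the NR4A list, 4 were lower and 2 higher, with a median of -0.12. Arrays of the same genotype lay at most 0.58 units apart, so the wild-type arrays were less than 2-fold apart in each. Among all tested genes, 14.6% had them at least 2-fold apart. Scarb1, the receptor for high-density lipoprotein, differed by -0.21 (SE 0.17) and Hsd3b1, a steroid dehydrogenase, by -0.12 (SE 0.16).

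The genes whose profile over the 4 arrays was nearest to the median profile of the 9 tested members were found by Euclidean distance of values centred on each gene's mean. The median profile stood at -0.42 and 0.11 on the knockout arrays and at 1.62 and -0.86 on the wild-type arrays. The 8 nearest of the other genes were Thrsp (distance 0.41), Zfp36 (0.45), Cited1 (0.46), Ier3 (0.49), Tiparp (0.53), Ccnl1 (0.55), Gda (0.56) and Fah (0.56). Zfp36, which destabilises AU-rich RNAs, and Ier3 also belong to the lists above. Thrsp, a lipogenic gene, read 8.76 and 9.41 in the knockout and 11.23 and 8.66 in wild type. Among the members, Nr4a1 (0.50) and Ier2 (0.61) lay closest to this profile, and Nr4a2 (2.09) and Junb (2.56) furthest from it. The likeness rests on 4 arrays and is a description.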

How the data were processed

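The authors deposited 1 log2 value per probe set and array. Scanner files were run through GCRMA of Bioconductor 3.14, per the labels' protocols. The log2 scale was read from the values (2.30 to 14.92). GCRMA models background from probe sequence, so weak probe sets gather near 2.30 and their differences are compressed. Its version is not given in the sources used here. The 64 control probe sets were left out.

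The genotypes were compared with a linear model per probe set (limma 3.58.1 under R 4.3.3, moderated by eBayes, genotype as its 1 term) over the 17228 probe sets at or above 4 units on at least 2 arrays, with Benjamini-Hochberg adjustment over all of them. The SE is limma's, with 2 residual and 1.73 prior degrees of freedom. The number of arrays limits the precision. The probe set with the highest mean stood for its gene. Genes were named from the platform annotation, from probe sets of 1 gene only. On simulated data of this comparison with 17228 probe sets, the fit called 0%, 16.6%, 40% and 55.4% of shifts of 1, 2, 3 and 4 units, with 0.7 false calls per run. The simulated spread was drawn from the residual SDs of all tested probe sets, with a median of 0.263. Those of the tested member probe sets were larger than this median (0.34 to 2.81), so these shares do not carry over to the members.

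The members and lists were chosen with earlier results of these data known, including the spread of immediate-early genes between the wild-type arrays. Every member was named. From the other lists the 2 genes with the smallest p were named, since none passed the adjusted threshold. The 8 genes nearest in profile were named by distance, and marker genes were fixed by list. Nfil3, Csrnp1, Btg2, Per1, Klf10, Jund, Nr4a3, Egr2, Egr3 and Egr4 were named after their values were seen. Promoter windows are RefSeq's, of GRCm38.p6. The values themselves carry no genome build. Alternatives were another filter, normalization, variance model or choice of probe sets, the replicate number as a block, and leaving out each array.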

Additional observations from a re-analysis of the deposited data

How the results depend on the processing

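No member probe set passed an adjusted p of 0.05 in limma under any of the 12 alternatives run, and the smallest adjusted p of a member was 0.0721. Over all probe sets 0 passed with all 4 arrays, and 2 with a filter at 6 units, quantile normalization, centred arrays or plain probe sets only, none of them a member. The count at an unadjusted p under 0.01 with a 2-fold difference in limma was 144 of 17228 probe sets. It was 78 of 45037 with no filter and 94 of 10110 genes with probe sets averaged by gene, so the totals differ. Leaving out each array in turn gave 25 to 1497 of these over all probe sets and 0 to 2 among the members. It moved the median difference of the 9 tested genes between -2.12 and 0.73 (-0.83 on all arrays). The filter at 6 units gave -0.55 over 8 genes. With fewer arrays, groups that do not overlap are more common by construction. Genes with the knockout lower numbered 1 to 7 of 9, the 7 being without wild-type array 2, where 54.3% of all tested genes were lower too. Genes with the knockout higher numbered 0 to 6, the 6 being without wild-type array 1, where 43.4% of all were higher. In the remaining fits of each count, 29.8% to 32.2% of all tested genes were lower and 25.1% to 31.4% higher. Those with the wild-type pair further apart than the genotypes numbered 7 to 9 (8 on all arrays), and those with the knockout pair further apart than the genotypes 2 to 4 (5 on all arrays). Plain probe sets gave 2 genes with both knockout arrays lower and 7 with the wild-type pair further apart, and centred arrays also gave 7. In the main fit 20.5% of all tested genes had both knockout arrays lower, and 71.2% the wild-type pair further apart. Shares of all genes under these settings, and for the pairs with an array left out, are not given here. These counts are therefore descriptions. Directions turned within these ranges for Fos (-2.15 to 0.0525), Jun (-0.0646 to 0.94), Egr1 (-1.97 to 1.75), Atf3 (-2.87 to 0.87), Nr4a1 (-1.26 to 0.73), Nr4a2 (-0.21 to 1.64) and Ier2 (-2.30 to 0.64), and held for Junb (-3.93 to -1.60) and Gadd45b (-2.20 to -0.59). Of the 72 gene differences under the other alternatives 71 kept their direction, the exception being Nr4a2 at -0.24 with the mean of its probe sets. Another filter, variance model or the replicate block cannot change the difference of a gene. Many of the 72 were therefore fixed in advance, and the 71 do not measure how stable the directions are. The cause of the other changes was not tested.

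The labels give both genotypes replicate numbers 1 and 2 without saying that a number marks a shared animal or day. With the replicate block 0 probe sets passed the adjusted threshold and 126 the unadjusted one of 0.01 with a 2-fold difference, none of them a member. At an unadjusted p under 0.05, 1 of the 14 member probe sets passed with the block, beside 3.97% of all. It was the leading one of Nr4a2, with a limma unadjusted p = 0.0392 and adjusted p = 0.797, against an unadjusted p = 0.492 without the block. The differences between array 1 and array 2 correlated at 0.154 across probe sets between the genotypes.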
